A study of Mus musculus with 6 samples.

Results

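Haemoglobin and red blood cell genes were described in RNA-seq libraries of mouse gastrocnemius, a calf muscle. The 7 genes, of 57010 in the count matrix, were the adult globin genes Hba-a1, Hba-a2, Hbb-bs and Hbb-bt, the haem synthesis gene Alas2, the membrane gene Slc4a1 and the glycolytic shunt gene Bpgm, found by matching Ensembl identifiers to symbols. They were chosen by their CPM levels and fold changes in these same 6 libraries, so their levels and fold changes are given as descriptions without p-values. The libraries came from 3 homozygous B6.A-Dysfprmd/GeneJ mutants (the BLAJ line, in which a retrotransposon insertion abolishes dysferlin, a sarcolemmal repair protein, in every tissue) and 3 C57BL/6 controls. All were 3 months old and untreated, and each library was 1 animal. Mutant 1 and mutant 2 were female, while mutant 3 and all controls were male, so sex was not balanced between the groups.

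Haemoglobin carries oxygen as a tetramer of alpha and beta globin chains, each holding a haem group. Mammalian red cells lose their nucleus during maturation, and the youngest circulating cells, reticulocytes, still carry large amounts of globin mRNA. A muscle contains red cells inside its vessels, whereas the oxygen-binding protein of the fibre itself is myoglobin. C57BL/6 mice carry the s haplotype of the beta globin locus, whose adult genes are Hbb-bs and Hbb-bt, and the alpha locus holds the near-identical copies Hba-a1 and Hba-a2. The globin haplotypes of the animals used here were not checked.

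The copies are shown because so little separates them. In the GENCODE M21 transcripts (GRCm38), the coding sequences of Hba-a1 and Hba-a2, 429 bases each, differed at 1 base, C381T, with Hba-a1 given first and positions counted from 1 at the A of the start codon. The coding sequences of Hbb-bs and Hbb-bt, 444 bases each, also differed at 1 base, C417T, with Hbb-bs given first. The stretches around these bases read as follows, 5′ to 3′ on the coding strand, with the differing base in capitals. They lie at chr11:32284323-32284363 (plus strand, Hba-a1), chr11:32297140-32297180 (plus strand, Hba-a2), chr7:103826672-103826712 (minus strand, Hbb-bs) and chr7:103812663-103812703 (minus strand, Hbb-bt), each within coding exon sequence.
Hba-a1: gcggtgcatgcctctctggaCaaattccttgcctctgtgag
Hba-a2: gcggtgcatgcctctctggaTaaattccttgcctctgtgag
Hbb-bs: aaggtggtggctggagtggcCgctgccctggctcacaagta
Hbb-bt: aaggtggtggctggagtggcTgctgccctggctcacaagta

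Reads were 61 bases long, and of the 61-base windows in the Hba-a1 transcript 65.3% also occurred in Hba-a2, while 84.4% of those in Hba-a2 occurred in Hba-a1. For the beta genes, 65.1% of the Hbb-bs windows occurred in Hbb-bt and 57.5% of the Hbb-bt windows in Hbb-bs. Counts of the single copies are therefore uncertain, and sums over both copies of a chain are given beside them. The counts leave out pairs that mapped to several places, so the sums do not recover pairs that fit both copies equally.

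The sequence before the transcription start is printed for Hba-a1, Hbb-bs, Hbb-bt and Alas2, the members whose levels lay closest to the summed globin in the results that follow. Whether shared matches go with shared levels was not tested. These are the 150 bases upstream of the RefSeq start (GRCm38.p6), 5′ to 3′ on the gene's strand, with capitals for every match, on either strand, to TATAA, a core promoter element, to CCAAT, a site of the factor NF-Y, to CACCC, a site of Klf factors, and to GATAA, a site of Gata factors. The windows lie at chr11:32283522-32283671 (plus, Hba-a1), chr7:103827929-103828078 (minus, Hbb-bs), chr7:103813924-103814073 (minus, Hbb-bt) and chrX:150547267-150547416 (plus, Alas2).
Hba-a1: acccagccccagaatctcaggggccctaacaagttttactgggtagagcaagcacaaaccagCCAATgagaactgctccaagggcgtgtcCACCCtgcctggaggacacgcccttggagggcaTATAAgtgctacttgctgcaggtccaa
Hbb-bs: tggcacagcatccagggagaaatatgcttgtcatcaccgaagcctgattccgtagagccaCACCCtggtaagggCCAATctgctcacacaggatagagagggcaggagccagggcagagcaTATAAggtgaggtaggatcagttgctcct
Hbb-bt: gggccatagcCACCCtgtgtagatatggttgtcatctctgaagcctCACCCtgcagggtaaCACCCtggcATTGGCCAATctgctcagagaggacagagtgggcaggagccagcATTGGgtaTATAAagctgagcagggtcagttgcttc
Alas2: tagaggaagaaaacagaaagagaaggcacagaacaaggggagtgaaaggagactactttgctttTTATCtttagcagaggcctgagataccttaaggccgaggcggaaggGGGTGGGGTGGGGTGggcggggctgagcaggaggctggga

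The Hba-a2 window matched that of Hba-a1 in 147 of 147 aligned bases, so it is not printed, while the Hbb-bs and Hbb-bt windows matched in 106 of 149. Hba-a2 nevertheless followed the summed globin least of the members. The window of Bpgm, which did not follow globin either, also held CCAAT. The identical alpha windows are counted separately in the shares below. TATAA stood in 4 of 4 globin windows and in 14.2% of 32851 RefSeq mouse promoters of the same length. CCAAT stood in 4 of 4 globin windows against 24.5% of all promoters, and CACCC in 4 of 4 against 37.4%. GATAA stood in 0 of 4 globin windows, against 13.3% of all promoters, and once in that of Alas2, which held neither TATAA nor CCAAT. A pair of CCAAT matches on opposite strands adjoins in Hbb-bt, as do the CACCC matches in Alas2, with no shared base. A match is a string of letters and says nothing by itself of a factor's binding.

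The libraries held 36920716, 35042245 and 40230648 read pairs in genes in mutants 1, 2 and 3, and 40367595, 43733641 and 40990024 in controls 1, 2 and 3. At that depth 3 pairs in 1 library are worth 0.0686 to 0.0856 CPM by plain library totals. All other CPM are counts scaled by TMM-adjusted library size. Dysf, which encodes dysferlin, had 15.8, 14.7 and 20.3 CPM in the mutants and 72.2, 99.8 and 145 CPM in the controls (log2 fold change -2.64, SE 0.28, edgeR adjusted p = 0.0249). Muscle fibre markers summed to 147967 to 177942 CPM in the mutants and 138147 to 187027 CPM in the controls. Skeletal muscle was thus present in all 6, but the sum does not tell which muscle. Within it, Myh1 ran from 1862 to 3924 CPM in the mutants and from 1009 to 6034 CPM in the controls. H2-Ea-ps and Ifi202b, which C57BL/6 mice are known not to express, did not follow the control label: H2-Ea-ps had 0.0264 CPM in mutant 1 and 0 in mutants 2 and 3, against 2.37, 3.44 and 3.12 CPM in the controls. Ifi202b was at 0 in all 3 mutants, against 7.69, 1.02 and 2.62 CPM in the controls. Every difference between the groups is therefore one between these animals, in which genotype, genetic background and, in part, sex cannot be told apart.

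Globin mRNA was plentiful in every library, and its largest differences lay among the controls. The sum of Hba-a1, Hba-a2, Hbb-bs and Hbb-bt was 1469, 1319 and 1965 CPM in mutants 1, 2 and 3, against 745, 1992 and 946 CPM in controls 1, 2 and 3. Control 2 was the highest of the 6 libraries and control 1 the lowest, and all mutants lay between them. The means were 1584 ± 338 CPM in the mutants and 1228 ± 670 CPM in the controls (SD, n = 3 each), a log2 ratio of 0.37 that is smaller than the spread between controls. It was 0.10 without control 1, 0.91 without control 2, 0.18 without mutant 3 and 0.20 without control 3. The highest library exceeded the lowest 2.68-fold among the controls and 1.49-fold among the mutants. As a share of all read pairs in genes, globin made up 0.151%, 0.137% and 0.192% in the mutants and 0.0739%, 0.201% and 0.0908% in the controls. In a bulk sample, fewer red cells and less RNA per red cell cannot be told apart.

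**Figure D1:**
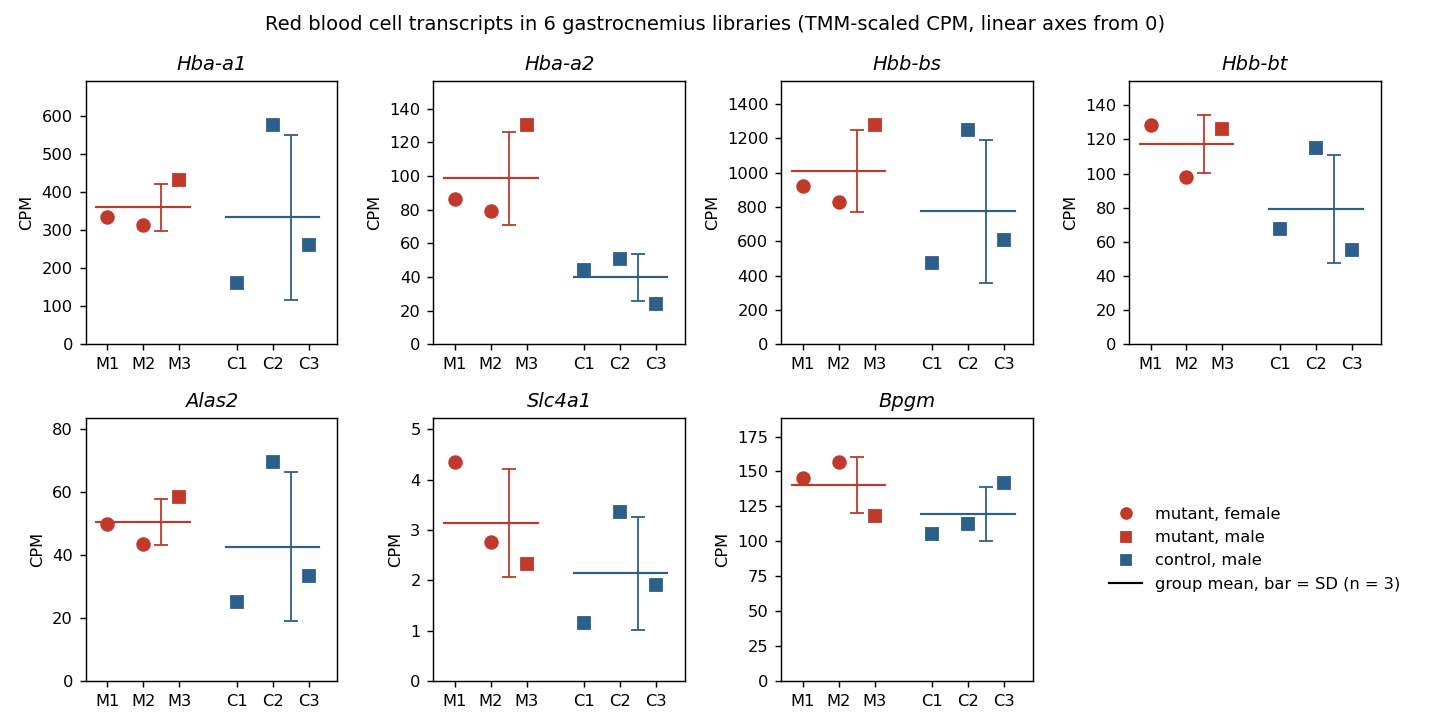
Each panel plots 1 gene's level in CPM (TMM-scaled, linear axis from 0) in every library, mutants left of controls, with females as circles, males as squares, the group mean as a line and the SD (n = 3) as an error bar. Control 2 lies above the other controls in Hba-a1, Hbb-bs, Hbb-bt and Alas2, and only the Hba-a2 panel has groups that do not overlap.

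Hbb-bs, 1 of the adult beta chain genes, was the most abundant of the 7. It had 920, 827 and 1278 CPM in the mutants and 472, 1250 and 604 CPM in the controls. The groups overlapped widely, with control 1 and control 3 low and control 2 next to mutant 3. Its log2 fold change was 0.38 (SE 0.38), and it was 0.91 without control 2 and 0.11 without control 1. Among all genes ranked by CPM, Hbb-bs stood between rank 74 and rank 214 in the 6 libraries.

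Hbb-bt, the other adult beta chain gene, had 129, 98.0 and 126 CPM in the mutants and 67.6, 115 and 55.4 CPM in the controls. Control 2 again lay within the range of the mutants, and the other controls below it. The difference on the log2 scale was 0.57 (SE 0.28), from 0.35 to 0.93 with 1 library left out.

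Hba-a1, 1 of the adult alpha chain genes, had 334, 315 and 431 CPM in the mutants and 161, 577 and 262 CPM in the controls. Control 2 exceeded every mutant, and the lowest control was lower by 3.58-fold. A log2 fold change of 0.11 (SE 0.44) turned to -0.23 without control 1, -0.04 without mutant 3 and -0.05 without control 3, and was 0.77 without control 2.

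Hba-a2, the other adult alpha chain gene, was the exception among the members. It had 86.4, 79.1 and 130 CPM in the mutants and 44.0, 50.8 and 24.2 CPM in the controls, so every mutant lay above every control. The mean was 98.6 ± 27.7 CPM in the mutants and 39.6 ± 13.8 CPM in the controls (SD, n = 3 each). The log2 fold change was 1.31 (SE 0.31) and stayed between 1.05 and 1.72 in 17 alternative analyses. Hba-a2 was the 1 of 7 members whose groups did not overlap, against 12.1% of the 15589 tested genes in either direction and 5.97% with the mutants higher, and these levels had also served to choose the members. No member passed the edgeR threshold of an adjusted p below 0.05, which 0.199% of tested genes passed (0.0128% higher and 0.186% lower in the mutants), and Hba-a2 was the 1 member that passed with DESeq2, where 1.18% of genes did. The authors' deposited table gave log2 fold changes of 1.31 for Hba-a2, 0.11 for Hba-a1, 0.37 for Hbb-bs and 0.56 for Hbb-bt.

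The share of alpha globin pairs assigned to Hba-a2 separated the animals differently from the genotype. It was 20.6% (exact 95% binomial interval 19.9% to 21.2%), 20.1% (19.4% to 20.8%) and 23.2% (22.6% to 23.8%) in mutants 1, 2 and 3. In the controls it was 21.4% (20.6% to 22.3%), 8.09% (7.77% to 8.42%) and 8.45% (7.94% to 8.98%). Control 1 thus lay among the mutants, with control 2 and control 3 well below, and the intervals cover counting error only. The labels name the animal of control 1 x235, while those of control 2 and control 3 are named black_1 and black_2. Pairs that mapped to several places, which the authors' counts leave out, made up 7.52%, 6.37% and 6.26% of pairs in the mutants and 9.78%, 5.83% and 6.29% in the controls. Their part in the Hba-a2 share was not tested.

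The share of Hbb-bt among the beta copies varied less, 1.49-fold over the 6 libraries against 2.87-fold for Hba-a2, and arranged the mutants differently. Hbb-bt took 12.3%, 10.6% and 8.98% of beta globin pairs in the mutants and 12.5%, 8.43% and 8.39% in the controls. The highest share was that of control 1, and the lowest were those of control 2 and control 3. The mutants were spread between them, and mutant 3 stood closest to control 2.

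**Figure D2:**
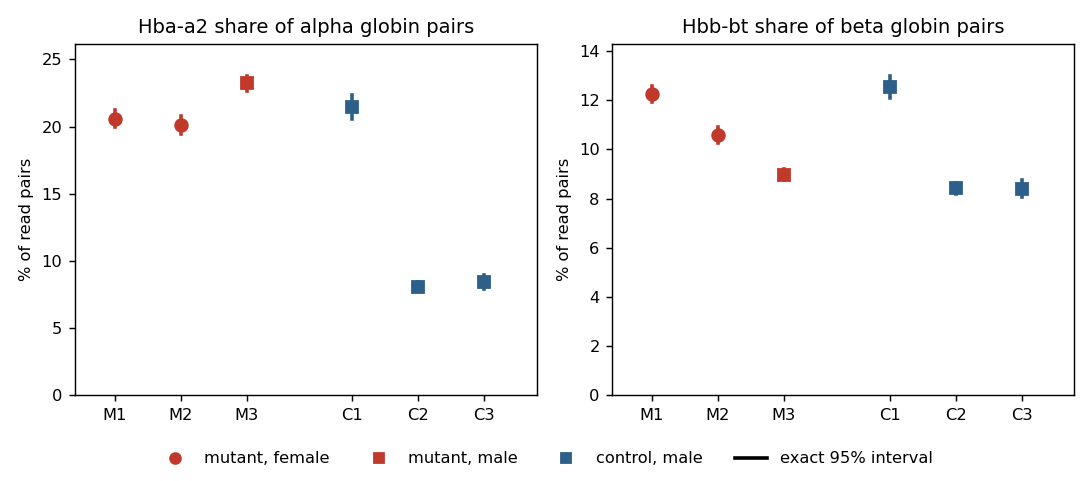
The panels plot, for each library, the percentage of alpha globin read pairs assigned to Hba-a2 and of beta globin pairs assigned to Hbb-bt, with exact 95% binomial intervals, mutants left of controls. For Hba-a2 control 1, at 21.4%, lies with the mutants, and control 2 and control 3 lie at 8.09% and 8.45%.

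Summed over copies, the alpha and beta chains kept a nearly fixed proportion. Alpha globin came to 420, 394 and 562 CPM in the mutants and 205, 627 and 286 CPM in the controls, and beta globin to 1049, 925 and 1404 CPM in the mutants and 539, 1365 and 660 CPM in the controls. Alpha pairs made up 28.6%, 29.8% and 28.6% of globin pairs in the mutants and 27.6%, 31.5% and 30.3% in the controls. The proportion thus moved little in libraries whose globin level differed by 2.68-fold. It is a proportion of the counted pairs, without those that fit both copies of a chain equally, so its absolute value is uncertain.

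Alas2, the erythroid form of the first and rate-limiting enzyme of haem synthesis, followed the globin mRNA closely. It had 49.7, 43.5 and 58.2 CPM in the mutants and 25.0, 69.6 and 33.3 CPM in the controls, with control 2 highest and control 1 lowest, as for the globin sum. The log2 fold change of 0.24 (SE 0.37) became -0.04 without control 1 and 0.79 without control 2. For every 1000 globin pairs there were 33.8, 33.0 and 29.6 Alas2 pairs in the mutants and 33.5, 34.9 and 35.2 in the controls. This ratio had a coefficient of variation of 6.02% over the 6 libraries, and its highest value was 1.19 times the lowest. Alas2 overlaps Apex2 and Mir3620 on the opposite strand, and the count of its own strand was 1.16 to 1.22 times the unstranded count used here.

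Slc4a1 encodes band 3, the anion exchanger that carries chloride and bicarbonate across the red cell membrane and anchors its cytoskeleton. It was the rarest member, at 4.36, 2.75 and 2.31 CPM in the mutants and 1.15, 3.35 and 1.91 CPM in the controls. Mutant 1 was the highest library and control 1 the lowest, and the groups overlapped. Mutant against control, the log2 fold change was 0.55 (SE 0.44), and it was 0.25 without mutant 1, 0.25 without control 1, 1.04 without control 2 and 0.11 with sex as a covariate. Relative to 1000 globin pairs, Slc4a1 gave 2.97, 2.09 and 1.18 pairs in the mutants and 1.54, 1.68 and 2.01 in the controls, a 2.52-fold range and wider than that of Alas2.

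Bpgm encodes the mutase that makes 2,3-bisphosphoglycerate, the red cell metabolite that lowers the oxygen affinity of haemoglobin. It had 145, 157 and 118 CPM in the mutants and 105, 113 and 142 CPM in the controls. Mutant 1 and mutant 2, the females, were the highest, and control 3 exceeded mutant 3. The log2 fold change was 0.23 (SE 0.17), and it was -0.02 with sex as a covariate and -0.01 in the males alone. Bpgm varied least of the members over the 6 libraries and did not follow globin. It gave 98.9, 119 and 60.2 pairs per 1000 globin pairs in the mutants and 141, 56.5 and 150 in the controls. The ratio was lowest in control 2 and mutant 3, where globin was highest.

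**Figure D3:**
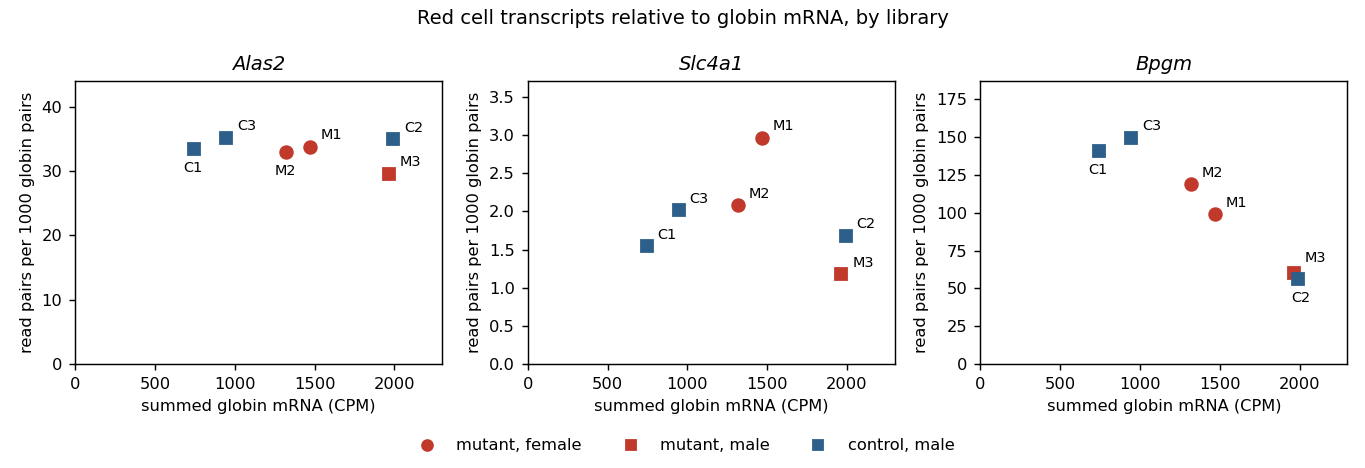
The panels plot read pairs of Alas2, Slc4a1 and Bpgm per 1000 globin pairs against summed globin mRNA in CPM, with 1 point per library (M, mutant; C, control; circles female, squares male). Alas2 stays between 29.6 and 35.2 pairs over the whole range of globin, while Bpgm runs from 150 in control 3 to 56.5 in control 2. Globin is the denominator of each ratio, so a gene of steady level falls along the horizontal axis.

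Per kilobase of transcript, the mean levels followed the order Hbb-bs, Hba-a1, Hba-a2, Hbb-bt, Bpgm, Alas2 and Slc4a1 in the mutants. Whole transcript lengths were used, although pairs that mapped to several places are left out of the counts. Between 57.5% and 84.4% of the 61-base windows of a globin transcript occur in its other copy. The order of the globin copies, and their distance from the other members, is therefore uncertain. Hbb-bs averaged 1606 ± 379 CPM per kb in the mutants and 1235 ± 663 in the controls, and Hba-a1 averaged 515 ± 89.6 in the mutants and 477 ± 310 in the controls (SD, n = 3 each). Hba-a2 averaged 178 ± 50.0 CPM per kb in the mutants and 71.6 ± 24.9 in the controls, and Hbb-bt 167 ± 24.2 in the mutants and 113 ± 44.8 in the controls. Hba-a2 and Hbb-bt, neighbours in that order, lay within their spread of each other in both groups, and in the controls Hbb-bt had the higher mean. Bpgm averaged 63.2 ± 8.94 CPM per kb in the mutants and 53.9 ± 8.70 in the controls, above Alas2 at 24.8 ± 3.62 in the mutants and 20.9 ± 11.6 in the controls. Slc4a1 was lowest, at 0.691 ± 0.237 CPM per kb in the mutants and 0.470 ± 0.246 in the controls.

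Likeness to globin over the 6 libraries was measured as the root mean square difference between a gene's log2 CPM and that of the summed globin, each centred on its own mean. A gene with no variation would score 0.519, and the median of all tested genes was 0.581. Hbb-bs scored 0.0191, Alas2 0.0823 and Hba-a1 0.163, while Hbb-bt scored 0.261, Slc4a1 0.401, Bpgm 0.555 and Hba-a2 0.594. Hbb-bs and Hba-a1 form most of the sum they were compared with, whereas Alas2, Slc4a1 and Bpgm are no part of it. The nearest genes outside the members were Cbx2 at 0.0969, Alms1 at 0.102, Kcnc4 at 0.137, Gcnt1 at 0.142 and Spsb1 at 0.148. Kcnc4, a voltage-gated potassium channel subunit, had 118, 114 and 152 CPM in the mutants and 53.1, 127 and 71.6 CPM in the controls. With 6 libraries and 15589 tested genes, such closeness describes these libraries only.

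Of 18 matched genes of the red cell cytosol and maturation, 6 were highest in control 2, the library with the most globin. The closest to globin of the list were Tent5c and Ube2l6, and the farthest was Car2, a carbonic anhydrase, at a likeness of 0.793. Tent5c, a poly(A) polymerase, had 12.3, 11.7 and 12.4 CPM in the mutants and 5.64, 15.6 and 6.20 CPM in the controls (likeness 0.174). Ube2l6, an enzyme of ISG15 and ubiquitin conjugation, had 19.8, 18.7 and 23.1 CPM in the mutants and 13.9, 23.5 and 13.7 CPM in the controls (likeness 0.227). Car2 had 17.0, 11.5 and 10.53 CPM in the mutants and 16.4, 8.24 and 11.3 CPM in the controls, so control 2 was the lowest library.

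Over all lists of other red cell, haem and iron genes, 84 genes were matched and 61 tested, of which 36 were higher in the mutants and 25 lower. None passed the edgeR threshold in either direction, and DESeq2 called 0. An unadjusted edgeR p below 0.05 was found for 6 of 61, against 1082 of all 15589 tested genes. Without control 2 edgeR called 1 of 61. Their median log2 fold change was 0.07, against -0.002 over all tested genes. By list, the groups did not overlap in 1 of 2 other globins and 1 of 13 membrane and cytoskeleton genes. The same held for 2 of 16 cytosol and maturation genes and 2 of 9 haem synthesis genes. It held for 2 of 12 clearance and iron genes, 0 of 6 regulators and receptors and 0 of 5 mutase and anion exchange genes. Over all 15589 tested genes the share without overlap was 12.1%. The median of the 7 members was 0.38, and 7 of 7 were above 0, with 7762 of 15589 tested genes above 0. The members were chosen by these same fold changes, so their median and signs are descriptions and no contrast with other genes.

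Embryonic and minor globin genes were nearly silent. Hba-x, Hbb-y, Hbb-bh0, Hbb-bh1 and Hbb-bh2 had 0 counts in all 6 libraries, which allows at most 3 counts or 0.0686 to 0.0856 CPM in each. Hbq1a and Hbq1b, theta globin genes, had 26 and 33 counts over all libraries. Cygb encodes cytoglobin, a globin of fibroblasts and related cells. It had 24.6, 17.0 and 19.9 CPM in the mutants and 10.1, 15.2 and 11.3 CPM in the controls, without overlap, but did not pass (log2 fold change 0.75, edgeR adjusted p = 0.523). Mb, the myoglobin gene of the fibre, varied widely at 1246, 505 and 972 CPM in the mutants and 1386, 1453 and 409 CPM in the controls.

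Of 18 membrane and cytoskeleton genes matched, 13 were tested, 8 higher in the mutants and 5 lower, with a median log2 fold change of 0.22. Gypc, which encodes glycophorin C and is also expressed outside red cells, lay lower, at 27.9, 29.7 and 27.1 CPM in the mutants and 44.9, 30.7 and 47.1 CPM in the controls. Those groups did not overlap, and the log2 fold change of -0.53 did not pass (edgeR adjusted p = 0.632). Epb42, a partner of band 3, had 0.502, 0.165 and 0.407 CPM in the mutants and 0.150, 0.317 and 0.127 CPM in the controls. Rhag, of the Rh complex, had 1 count in all 6 libraries.

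Among 16 tested genes of the red cell cytosol and maturation, 13 were higher in the mutants and 3 lower, with a median log2 fold change of 0.17. Cat, the peroxide-degrading catalase, had 122, 107 and 97.7 CPM in the mutants and 77.7, 88.5 and 49.1 CPM in the controls, without overlap. Its log2 fold change of 0.60 did not pass (edgeR adjusted p = 0.677). Trim10, a ubiquitin ligase family member known from erythroid differentiation, had 1.61, 0.826 and 0.610 CPM in the mutants and 0.274, 0.498 and 0.559 CPM in the controls, again without overlap and without passing (log2 fold change 1.19, edgeR adjusted p = 0.695).

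Some regulators of red cell precursors were near the limit of detection and others well above it. Gata1, the leading erythroid transcription factor, had 3, 5 and 4 counts in the mutants and 2, 1 and 3 in the controls. Klf1, the activator of adult beta globin, had 10, 5 and 2 counts in the mutants and 3, 3 and 1 in the controls. Tal1 and Lmo2, partners in an erythroid and endothelial transcription factor complex, were higher, at 1.90 to 2.38 and 5.398 to 7.32 CPM in the mutants and 1.79 to 2.35 and 6.35 to 8.87 CPM in the controls. Of 6 tested regulators and receptors, 3 were higher and 3 lower, with a median log2 fold change of 0.02. Tfrc, the transferrin receptor, had 56.3, 67.6 and 581 CPM in the mutants and 225, 216 and 353 CPM in the controls, a pattern unlike that of globin.

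Haem synthesis genes outside Alas2 were split in direction. Of 9 tested haem synthesis genes 4 were higher and 5 lower, with a median log2 fold change of -0.02. Alas1, the housekeeping counterpart of Alas2, had 82.8, 73.2 and 145 CPM in the mutants and 141, 100.2 and 121 CPM in the controls. Ppox, protoporphyrinogen oxidase, had 9.93, 9.64 and 10.2 CPM in the mutants and 7.04, 8.69 and 7.16 CPM in the controls. Those groups did not overlap, and the log2 fold change of 0.38 did not pass (edgeR adjusted p = 0.695). Its likeness to globin was 0.369, the closest of the pathway after Alas2, while Alas1 scored 0.705.

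Genes of haem and haemoglobin clearance and iron storage were split evenly, with 6 of 12 higher and 6 lower. Fth1, the ferritin heavy chain, had 1441, 1365 and 1301 CPM in the mutants and 1699, 2030 and 1519 CPM in the controls (log2 fold change -0.35, edgeR adjusted p = 0.77). Slc11a2, the iron transporter DMT1, had 23.2, 27.6 and 30.2 CPM in the mutants and 42.0, 30.6 and 53.3 CPM in the controls (log2 fold change -0.64, edgeR adjusted p = 0.653). Neither pair of groups overlapped and neither gene passed. Hp, the haemoglobin-binding haptoglobin, ranged from 7.83 to 17.4 CPM in the mutants and from 5.39 to 33.8 CPM in the controls. The 5 mutase and anion exchange relatives of Bpgm and Slc4a1 had a median log2 fold change of -0.09, with 2 higher and 3 lower.

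**Figure D4:**
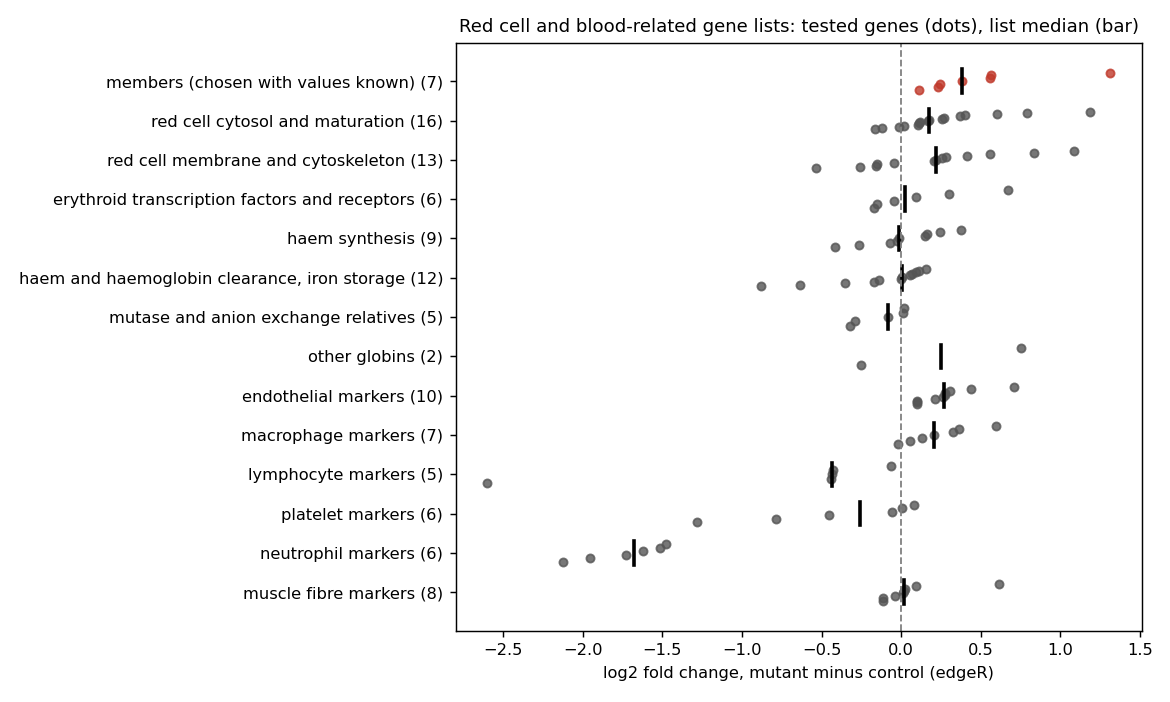
Each point is the log2 fold change (mutant minus control, edgeR) of 1 tested gene, arranged by gene list with its median as a bar, and the 7 members on the top row. The members, chosen with these values known, lie above 0, with Hba-a2 at 1.31. Haem synthesis genes other than Alas2 have a median of -0.02.

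Markers of other blood and vessel cell types differed in how they varied over the libraries. Platelet markers summed to 11.7 to 14.7 CPM in the mutants and 11.6 to 22.4 CPM in the controls, and 7 of the 10 were highest in control 2, the library with the most globin, while Gp1bb was at 0. Neutrophil markers summed to 3.11 to 9.30 CPM in the mutants and 8.97 to 29.4 CPM in the controls, with 6 of 6 tested markers lower in the mutants. Lymphocyte markers summed to 17.7 to 22.2 CPM in the mutants and 9.01 to 276 CPM in the controls, where Ighm alone reached 274 CPM in control 1. Endothelial markers summed to 335 to 472 CPM in the mutants and 324 to 327 CPM in the controls, and 10 of 10 were higher in the mutants with a median log2 fold change of 0.27. Vwf, the endothelial and platelet von Willebrand factor, had 46.2, 51.9 and 56.7 CPM in the mutants and 26.4, 41.2 and 27.1 CPM in the controls, with control 2 highest of the controls and a likeness to globin of 0.291. Macrophage markers summed to 115.5 to 193 CPM in the mutants and 101 to 154 CPM in the controls. By both edgeR and DESeq2, 0 of these markers were called. An unadjusted edgeR p below 0.05 was found for 5 of 6 neutrophil markers and 1 of 10 endothelial markers, against 1082 of all 15589 tested genes. Their part in the globin values was not tested.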

How the data were processed

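Poly(A)-selected directional libraries were made from 800 ng of RNA (integrity number at least 7.0) and read as pairs of 61 bases, per the labels' protocols. The authors deposited raw counts of read pairs per gene. STAR 2.7.11b and the build GRCm39, FastQC 0.12.1 with MultiQC 1.28, and DESeq2 1.50.2 under R 4.5.2 are listed in the submitters' processing notes. The matrix was equal to the unstranded column of the deposited per-library files in 57010 of 57010 genes. Pairs without a gene (18.5% to 22.3%) were left out. The authors' deposited results table holds log2 fold changes, p-values, Wald statistics (a score) and mean normalized signal, of which log2 fold changes of members are quoted.

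Symbols matched 52029 identifiers, and 145 of 146 listed genes. edgeR 4.0.16 in R 4.3.3 was run on all genes (TMM, filterByExpr with a minimum count of 10, robust quasi-likelihood F-test, Benjamini-Hochberg adjustment, threshold 0.05), leaving 15589 genes, of which 2 were called higher and 29 lower. CPM are TMM-scaled, and likeness used a pseudocount of 0.1 CPM. The summed globin value is the log2 ratio of group means. Alternatives used DESeq2 1.42.0 and limma 3.58.1 (voom), other normalizations and filters, sex, a replicate block and left-out libraries. The test was checked on simulated counts. All pairs of libraries differed by more than sampling noise (chi-square over degrees of freedom at least 55.1).

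The members and gene lists were chosen with earlier results of these data known. Named genes are the members, up to 4 genes per list with the smallest p, erythroid regulators, embryonic globins, the 5 nearest genes to globin and Dysf. Tent5c, Ube2l6, Car2, Alas1, Tfrc, Rhag, H2-Ea-ps and Ifi202b were named after their values were seen. Some genes the rule took are not reported here.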

Additional observations from a re-analysis of the deposited data

How the results depend on the processing

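The number of genes called among all tested was 31. It was 0 with sex as a covariate, 0 in males only, 11 with a replicate block, 79 with no filter on low counts, 184 with DESeq2, and 6 to 49 with 1 library left out (7 without mutant 1, 6 without mutant 2, 49 without control 2). Of the other red cell genes 0 were called in 16 of 17 alternatives, and 0 to 1 with 1 library left out, the 1 arising without control 2. The summed globin log2 ratio stayed above 0 in 13 of 13 alternatives, from 0.10 to 0.91, each within the pooled SD of 0.564 from 0.37; it was 0.81 with sex as a covariate, 0.68 in males only and 0.48 with the replicate block. The log2 fold change was above 0 in 17 of 17 alternatives for Hba-a2, Hbb-bs, Hbb-bt and Slc4a1, in 16 for Alas2, 15 for Bpgm and 14 for Hba-a1. In males only the single mutant is assumed to vary like the controls. Deviations of same-numbered libraries correlated at 0.173, -0.0607 and 0.178, and mutant 2 correlated best with control 1 (0.156), so the numbers were not treated as pairs. With 3 animals a group, and sex and background not separable from genotype, differences of the size of the control spread were not resolved. Levels under 0.0686 to 0.0856 CPM, by plain library totals, were below 3 counts.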
